A study of Homo sapiens with 4 samples.

Results

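The response of BT474 cells to 4 h of neratinib alone was described over all genes, by comparing 1 library of neratinib-treated cells with 1 library of vehicle-treated cells. BT474 is an established line from a human breast carcinoma that carries the estrogen receptor and an amplified ERBB2 gene, which encodes the receptor HER2. Barcodes with at least 5000 unique molecular identifiers (UMIs, counts of captured RNA molecules), at least 500 detected genes and at most 50% mitochondrial UMIs were taken as cells. This left 3433 cells with neratinib and 4240 with DMSO, the vehicle, which is 7673 of the 14867 cells of the series. The study held 4 single-cell libraries, 1 for each of DMSO, fulvestrant at 100 nM (a drug that blocks the estrogen receptor and leads to its degradation), neratinib at 200 nM and both drugs together. All 4 cultures were BT474 kept in RPMI 1640 medium with serum, exposed for 4 h and released with trypsin. The libraries were droplet-based 3' libraries (10x Genomics Next GEM v3), planned for 3000 cells each. Because each group was a single library of a single line, no difference below has a replicate check.

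Neratinib binds covalently to the kinase domains of EGFR, HER2 and HER4. In HER2-amplified cells, HER2 pairs with HER3, which recruits phosphoinositide 3-kinase (PI3K) and so activates AKT, while the RAS and ERK cascade drives the immediate early genes and cyclin D1. AKT keeps the FOXO transcription factors out of the nucleus, so FOXO target genes are held down while the receptor signals. Growth signals through MYC and mTOR also sustain ribosome assembly and the synthesis of nucleotides and polyamines.

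Cells of the libraries had similar depth, with a median of 22699.5 UMIs per cell for DMSO and 22450 for neratinib, and summed to 101920190 and 82173894 UMIs. The 13 mitochondrially encoded transcripts took a median of 16.2% of a cell's UMIs with DMSO and 21.0% with neratinib. Fewer genes were detected per cell with neratinib (median 4215) than with DMSO (4492), and with every cell thinned to 5000 UMIs the medians were 1667 and 1816. The 2 libraries shared 2 cell barcodes. All 13 BT474 lineage markers were detected in both, among them ERBB2 at 973 CPM (a gene's UMIs after scaling each library to 1 common total) with DMSO and 951 with neratinib, and ESR1, the estrogen receptor gene, at 14.6 and 18.2. The 12 immune markers summed to 1.43 and 1.86 CPM, with 7 of 12 at 0 in each library. The 8 endothelial markers summed to 2.57 and 2.51 CPM with 2 at 0 in each, and 12 fibroblast markers to 59.8 and 66.4 CPM with 6 and 8 at 0, most of it VIM and COL1A1. Basal and mesenchymal markers summed to 98.3 and 107 CPM over 14 genes, 3 of them at 0 in each library.

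UMIs were summed over the cells of a library and scaled to CPM, and each gene is given as its CPM in DMSO and neratinib with the log2 ratio of neratinib to DMSO. A log2 ratio of 1 is a doubling and a ratio of -1 a halving. Square brackets hold the exact 95% Poisson interval of that ratio, which covers counting error only. A gene counted as measured where its mean CPM over the 2 libraries was at least 5, and was called higher or lower where the ratio was at least 1.5-fold with an interval off 0.

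Many more genes were called lower than higher after 4 h. Of 9147 measured genes, 358 were called higher (3.91%) and 1191 lower (13.0%), and the median log2 ratio was -0.17. At least 2-fold differences were seen for 123 genes upward and 281 downward, and at least 4-fold differences for 13 each way. Only 2 genes were at least 8-fold higher, the insulin receptor substrate IRS2 and DEPP1, a FOXO-regulated gene that was named after its values were seen. The 4 genes at least 8-fold lower were FOS, EGR1, the ERK phosphatase DUSP6 and PHLDA2. The split between directions depended on the scaling. With median-of-ratios scaling, which sets the median gene to 0 and so lifts every ratio by 0.17, 639 genes were higher and 667 lower, and with CPM over non-mitochondrial UMIs 537 were higher and 977 lower. Ratios between -0.17 and 0 therefore take the other sign under median-of-ratios scaling, while larger differences in either direction keep theirs.

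**Figure D1:**
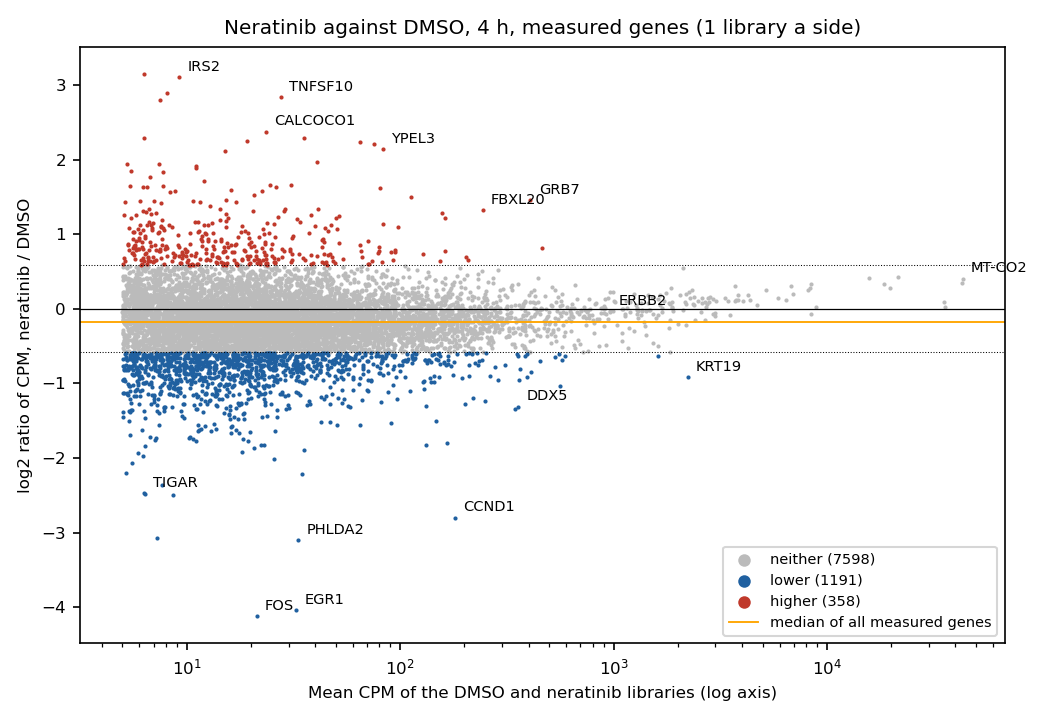
Log2 ratio of CPM (neratinib over DMSO, vertical axis) against the mean CPM of the 2 libraries (horizontal, log axis) for 9147 measured genes, 1 library a side. Red points are the 358 genes called higher and blue points the 1191 called lower, dotted lines mark 1.5-fold and the orange line is the median of -0.17.

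The calls were more frequent among weakly expressed genes. Under 10 CPM, 6.60% of genes were higher and 17.4% lower, while between 100 and 500 CPM the shares were 1.11% and 8.88%. Above 500 CPM no gene was higher and 3.17% were lower. Because the limit of 5 CPM applied to the mean, 149 measured genes were under it with DMSO and 286 with neratinib. For the median gene the counting interval reached 0.09 to either side of its ratio, so counting error was small beside the 1.5-fold limit.

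The pair of libraries with fulvestrant, both drugs against fulvestrant alone, shares no library with this comparison. In it 383 of the 9147 genes were higher (4.19%) and 1167 lower (12.8%), again with a median of -0.17. Called higher in both pairs were 311 genes, which is 86.9% of those higher against DMSO and 81.2% of those higher against fulvestrant. Called lower in both were 975 genes, 81.9% and 83.5% of the respective lists. No gene was called in opposite directions. Ratios from this pair are given below as the ratio on top of fulvestrant.

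**Figure D2:**
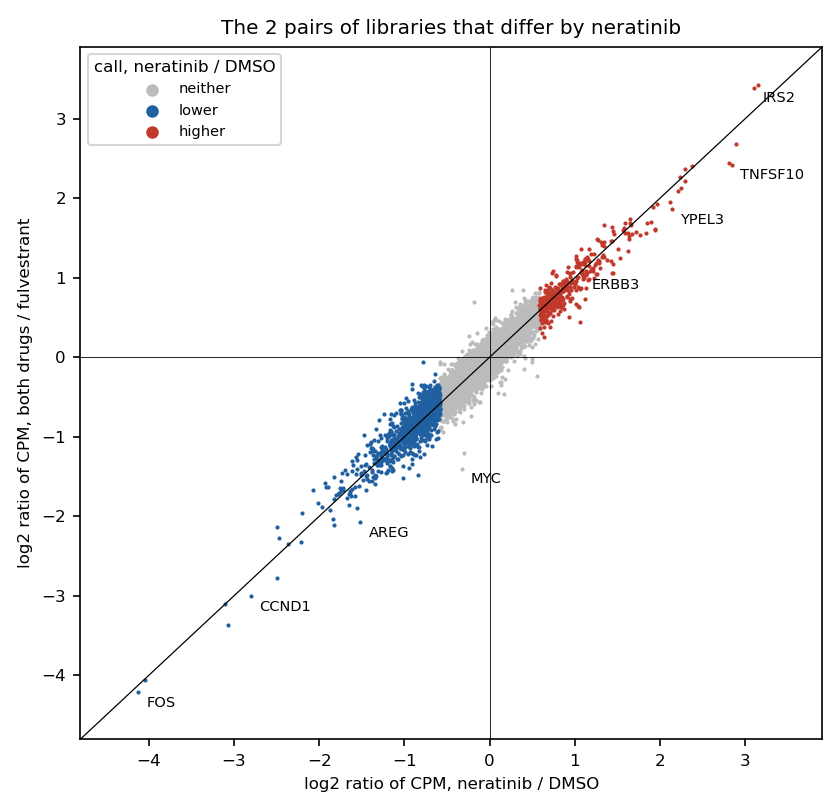
Log2 ratio of both drugs over fulvestrant (vertical axis) against that of neratinib over DMSO (horizontal axis) for the 9147 measured genes, coloured by their call against DMSO, with the line of equality. IRS2 lies at the upper end and FOS at the lower end of both axes, and MYC lies below the line, at -0.32 and -1.40.

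Outside the ERK, immediate early and FOXO target lists, the highest ratio among genes of at least 10 CPM on average was that of CALCOCO1, an autophagy receptor and transcriptional coactivator. CALCOCO1 had 7.6 CPM with DMSO and 39.5 with neratinib, a ratio of 2.38 [2.26, 2.49]. CREBRF, a regulator of the CREB3 stress factor, had 12.1 and 59.1 CPM (2.29 [2.20, 2.38]), and RBM20, a splicing regulator known from heart muscle, 5.64 and 24.5 CPM (2.12 [1.98, 2.25]). HDAC5, a class IIa histone deacetylase, followed with 5.6 and 18.4 CPM (1.72 [1.58, 1.86]), and GLUL, which encodes glutamine synthetase, with 14.9 and 46.8 CPM (1.65 [1.57, 1.74]). These are transcripts of modest abundance. SELENOP, the secreted selenium carrier protein, and PNRC1, a nuclear receptor coactivator, were the most abundant of the 15, at 39.2 and 121 CPM (1.62 [1.57, 1.68]) and at 58.8 and 167 CPM (1.5 [1.46, 1.55]). The interferon-inducible GTPase gene GBP2 was at 1.59 and BLNK, an adaptor best known from B cells, at 1.53. The rest of the 15 were CCDC28A (1.92), ABTB1 (1.89), YPEL1 (1.67), GLCCI1 (1.64), LINC01089 (1.58) and CCDC77 (1.46). On top of fulvestrant CALCOCO1 was at 2.40, CREBRF at 2.22, GLUL at 1.66 and PNRC1 at 1.37.

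**Figure D3:**
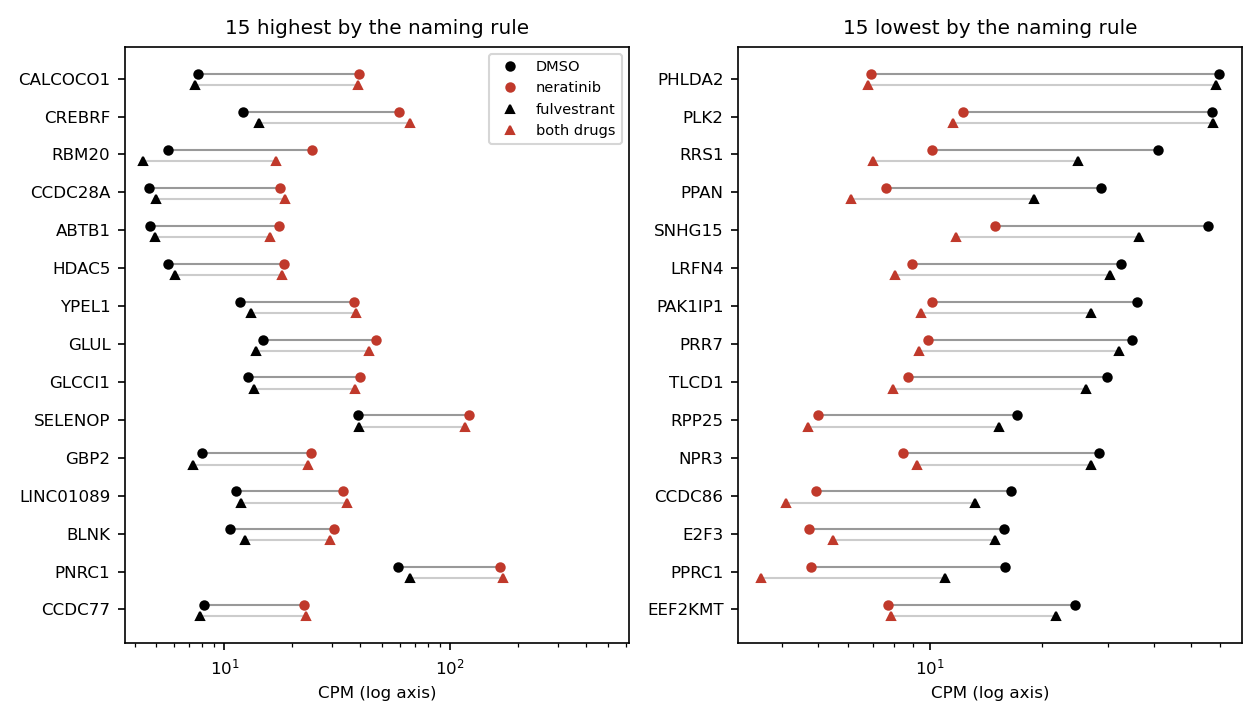
CPM (log axis) of the 15 highest and 15 lowest genes by the naming rule in each of the 4 libraries, with circles for DMSO and neratinib and triangles for fulvestrant and both drugs. Both libraries with neratinib (red) lie to the right of their partners for the 15 highest genes and to the left for the 15 lowest, and SELENOP goes from 39.2 to 121 CPM while PHLDA2 goes from 59.7 to 6.95.

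Receptor genes that feed PI3K were among those called higher. ERBB3, which encodes HER3, had 62.4 CPM with DMSO and 134 with neratinib (1.10 [1.05, 1.14]), and GRB7, an adaptor gene co-amplified with ERBB2, had 218 and 597 CPM (1.45 [1.43, 1.48]). ERBB4, the gene of HER4, was far lower in level, at 4.33 and 7.53 CPM (0.80 [0.62, 0.98]). The gene of the negative regulator ERRFI1, which binds and inhibits ERBB kinases, had 7.57 and 3.29 CPM (-1.20 [-1.41, -1.0]), and the ligand gene AREG 69.5 and 24.3 CPM (-1.52 [-1.59, -1.45]). LRIG1 (0.62) and CBLB (0.65), both inhibitors of ERBB receptors, were also higher. Of 12 measured ERBB receptors, ligands and inhibitors, 5 were higher (41.7%) and 2 lower (16.7%), beside 3.91% and 13.0% over all measured genes. On top of fulvestrant 3 were higher and 3 lower, and in cells with at most 20% mitochondrial UMIs 4 and 3. ERBB2 itself was at -0.03 [-0.05, -0.02] and at 0.14 with median-of-ratios scaling.

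The insulin and IGF branch also had higher receptor and adaptor genes, with few lower members. IRS2, the adaptor that links insulin and IGF1 receptors to PI3K, rested on a low level with DMSO, at 1.92 CPM against 16.6 with neratinib (3.11 [2.89, 3.33]), and was at 3.39 on top of fulvestrant. INSR, the insulin receptor gene, had 7.19 and 18.6 CPM (1.37) and IGF1R 24.8 and 50.2 CPM (1.02 [0.94, 1.09]). PIK3IP1, a membrane inhibitor of PI3K, had 6.69 and 31.8 CPM (2.25 [2.13, 2.37]). In the other direction AKT1 had 143 and 89.4 CPM (-0.68 [-0.72, -0.64]), and the AKT phosphatase gene PHLPP2 10.4 and 5.4 CPM (-0.94 [-1.11, -0.78]). Of 30 measured genes of the pathway, 9 were higher and 3 lower with a median of 0.04, beside 3.91% and 13.0% over all measured genes. The remaining calls, named after their values were seen, were TSC1 (0.87), RICTOR (0.73), PIK3CA (0.69), DEPTOR (0.66) and SGK3 (0.65) upward and PIK3R1 (-0.76) downward. TSC1, RICTOR and DEPTOR encode components or inhibitors of mTOR signalling, and PIK3CA and PIK3R1 the catalytic and regulatory subunits of PI3K.

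FOXO target genes had the second highest median of the lists, with 17 of 30 measured members higher (56.7%) and 2 lower (6.67%, median 0.72). Over all measured genes the shares were 3.91% and 13.0%. The list overlaps with the groups above, since IRS2, INSR, ERBB3 and PIK3IP1 belong to it. TNFSF10, the gene of the death ligand TRAIL, had 6.77 and 48.5 CPM (2.84 [2.72, 2.96]), and FBXO32, a ubiquitin ligase subunit known from muscle wasting, 16.7 and 65.2 CPM (1.97 [1.89, 2.05]). The lower members were CDKN1A, the gene of the CDK inhibitor p21, with 11.2 and 5.51 CPM (-1.03 [-1.19, -0.87]), and GADD45A at -0.73. All 4 measured YPEL genes, a family of small zinc-binding proteins tied to growth arrest, were higher. YPEL3 went from 30.6 to 135 CPM (2.14 [2.08, 2.20]), YPEL1 from 11.8 to 37.3 (1.67 [1.57, 1.76]), YPEL2 from 30.8 to 73.0 (1.24 [1.18, 1.31]) and YPEL5 from 15 to 24.6 (0.71 [0.62, 0.81]). The same 4 were called higher on top of fulvestrant, at 1.86, 1.54, 1.05 and 0.76.

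A forkhead sequence recognised by FOXO factors was 1 of 9 short motifs searched in RefSeq promoter windows (GRCh38.p14, 250 bases before to 50 after each annotated start), a comparison chosen after earlier results were known. Windows were matched for 256 of 311 coding genes called higher, 942 of 1173 called lower and 7358 of 8896 measured. The letters GTAAACA, on either strand, occurred in at least 1 window of 37 genes called higher (14.5%), 26 called lower (2.76%) and 255 measured (3.47%). Counted by window, the letters were in 8.82% of 431 windows of genes called higher. The shares were 1.94% of 1389 for genes called lower, 2.59% of 10706 for measured genes and 3.42% of all 35116 windows. Genes called higher had more windows each (1.68) than measured genes (1.46) and a lower median GC content (60.7% against 65.0%). The part of either in the shares of genes was not tested. The letters in SELENOP began 45 bases before the start, in YPEL3 at the start itself, and in the first of 2 windows of HBP1, a transcriptional repressor gene with 26.8 and 124 CPM (2.21 [2.15, 2.27]), 173 bases before it. These 3 promoters are shown 5′ to 3′ with the forkhead letters in capitals, because their genes are among the most abundant of those called higher that hold them. AKAP9 (156 and 252 CPM, 0.69) and BTG1 (91.8 and 223 CPM, 1.28) hold them too. Both were more abundant, had smaller ratios and are not shown.
SELENOP (chr5:42811843-42812142, minus strand): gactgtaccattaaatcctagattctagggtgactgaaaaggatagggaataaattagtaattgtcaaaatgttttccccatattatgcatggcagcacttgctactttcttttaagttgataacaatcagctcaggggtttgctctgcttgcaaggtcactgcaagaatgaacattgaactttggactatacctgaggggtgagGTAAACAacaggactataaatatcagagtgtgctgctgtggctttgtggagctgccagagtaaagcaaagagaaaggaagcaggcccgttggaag
YPEL3 (chr16:30096164-30096463, minus strand): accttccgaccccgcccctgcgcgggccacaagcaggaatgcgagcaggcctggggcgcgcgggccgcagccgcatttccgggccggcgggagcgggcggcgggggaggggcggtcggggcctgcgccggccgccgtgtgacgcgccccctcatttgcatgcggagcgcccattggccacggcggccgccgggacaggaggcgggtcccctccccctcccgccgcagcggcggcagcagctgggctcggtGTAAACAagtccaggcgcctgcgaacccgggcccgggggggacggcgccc
HBP1 (chr7:107168753-107169052, plus strand): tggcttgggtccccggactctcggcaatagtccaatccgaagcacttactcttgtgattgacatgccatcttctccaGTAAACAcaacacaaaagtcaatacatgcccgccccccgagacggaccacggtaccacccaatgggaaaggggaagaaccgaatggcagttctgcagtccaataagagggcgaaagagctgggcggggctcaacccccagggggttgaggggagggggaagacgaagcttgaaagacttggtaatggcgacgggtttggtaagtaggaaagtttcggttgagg

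Genes of autophagy and the lysosome, the pathway that digests cell components, were called higher more often than lower. Of 54 measured members 13 were higher (24.1%, beside 3.91% over all measured genes) and 3 lower (5.56%, beside 13.0%), with a median of 0.20. Besides CALCOCO1, the ubiquitin-like gene GABARAPL1, which acts on the forming autophagosome, had 4.21 and 12.4 CPM (1.56 [1.40, 1.73]). WIPI2, a phospholipid-binding initiator, was more abundant, with 119 and 204 CPM (0.78 [0.74, 0.81]). NBR1, a cargo receptor, had 22.2 and 38.9 CPM (0.81 [0.73, 0.89]), and MCOLN1, the lysosomal calcium channel gene, 5.47 and 9.86 CPM (0.85 [0.69, 1.01]). TP53INP2, which scaffolds autophagosome formation, stood out in the other direction with 19.7 and 8.52 CPM (-1.21 [-1.34, -1.09]). The abundant receptor gene SQSTM1 differed little, at 156 and 174 CPM (0.16 [0.13, 0.19]). On top of fulvestrant 10 members were higher and 2 lower, and under median-of-ratios scaling 16 and 1.

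Among 40 measured ubiquitin ligases and adaptors, 5 were higher and 5 lower (12.5% each), or 8 and 2 under median-of-ratios scaling. FBXL20, an F-box substrate adaptor, had 139 and 348 CPM (1.33 [1.30, 1.36]), and KLHL24, an adaptor of a cullin ligase, 22.7 and 107 CPM (2.24 [2.17, 2.30]). FBXW7, whose product marks MYC and cyclin E for destruction, had 14.7 and 8.77 CPM (-0.75 [-0.88, -0.62]). Proteasome genes had 5 of 46 lower (10.9%, close to the 13.0% over all measured genes) and none higher (median -0.26), led by the activator PSME3 at -0.84, but 1 lower under median-of-ratios scaling.

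PHLDA2, an imprinted gene of a small lipid-binding protein, had the lowest ratio outside the 3 signalling lists, with 59.7 CPM for DMSO and 6.95 for neratinib (-3.10 [-3.23, -2.98]). The kinase gene PLK2 had 57.0 and 12.3 CPM (-2.22 [-2.32, -2.12]). The next places belonged to ribosome assembly, with RRS1 at 40.9 and 10.1 CPM (-2.01 [-2.12, -1.91]) and PPAN at 28.8 and 7.59 CPM (-1.92 [-2.05, -1.80]). SNHG15, a host transcript of small nucleolar RNA, had 55.6 and 14.9 CPM (-1.90 [-1.99, -1.81]). PAK1IP1 and CCDC86, whose products reside in the nucleolus, were at -1.83 [-1.94, -1.72] and -1.74 [-1.90, -1.58], and RPP25, a subunit of the RNA-processing enzyme RNase P, at -1.77. E2F3, a transcription factor of S phase entry, had 15.8 and 4.73 CPM (-1.74 [-1.90, -1.58]), and PPRC1, a coactivator of mitochondrial gene programmes, was at -1.72. The natriuretic peptide clearance receptor NPR3 (-1.75), EEF2KMT, a methyltransferase of an elongation factor (-1.67), LRFN4 (-1.87), PRR7 (-1.82) and TLCD1 (-1.78) complete the 15. All 15 were lower on top of fulvestrant too, where PHLDA2 was at -3.10 and RRS1 at -1.83.

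Ribosome biogenesis, the assembly of ribosomes in the nucleolus, had a larger share of lower members than all measured genes (13.0%). Of 70 measured members 35 were lower and none higher (median -0.59), with a summed level of 4790 CPM for DMSO and 3642 for neratinib. NOP16 had 27.4 and 9.85 CPM (-1.47 [-1.59, -1.36]), PNO1, a factor of the small subunit, 26.9 and 10.2 CPM (-1.39 [-1.51, -1.28]), and POLR1B, a subunit of RNA polymerase I, 11.2 and 4.44 CPM (-1.33 [-1.51, -1.16]). The most abundant nucleolar genes differed less, with NCL at 590 and 429 CPM (-0.46 [-0.48, -0.44]) and NPM1 at 1104 and 1100 CPM (-0.01 [-0.02, 0.01]). No member was higher and 23 were lower under median-of-ratios scaling, 0 and 28 in cells with at most 20% mitochondrial UMIs, and 0 and 22 on top of fulvestrant (median -0.41).

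Synthesis of the small molecules that growth consumes followed the same direction. Over all measured genes 13.0% were lower. Of 34 measured genes of polyamine, nucleotide and folate-dependent synthesis 9 were lower (26.5%) and none higher (median -0.35), or 6 lower under median-of-ratios scaling. The polyamine enzymes SRM, with 135 and 58.6 CPM (-1.21 [-1.25, -1.16]), AMD1, with 66.0 and 27.4 CPM (-1.27 [-1.34, -1.20]), and ODC1, with 46.8 and 21.1 CPM (-1.15 [-1.23, -1.07]), were all among them. CTPS1, which makes CTP, had 14.0 and 5.14 CPM (-1.44 [-1.60, -1.28]), and PPAT, the first enzyme of purine synthesis, 22.7 and 10.2 CPM (-1.15 [-1.27, -1.04]). The ODC1 inhibitor OAZ1 was near its DMSO level, at 660 and 615 CPM. Transfer RNA synthetases had 6 of 20 lower (30.0%) and none higher (median -0.39), led by YARS at 28.9 and 14.5 CPM (-1.0 [-1.09, -0.90]). Only 2 were lower with median-of-ratios scaling and 3 on top of fulvestrant. Translation factors had 9 of 46 lower (19.6%) and none higher (median -0.29), or 4 lower with median-of-ratios scaling. The initiation factors EIF4A1 (126 and 66.4 CPM, -0.92 [-0.97, -0.87]) and EIF5 (274 and 147 CPM, -0.90 [-0.93, -0.87]) were in that group, while the abundant elongation factor EEF1A1 was at 0.25 [0.24, 0.25].

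The E-box CACGTG, the palindrome bound by MYC with MAX and by several other factors, was searched in the same promoter windows. At least 1 window held it in 21 of 60 matched ribosome biogenesis genes (35.0%), 157 genes called lower (16.7%), 44 called higher (17.2%) and 991 measured genes (13.5%). Counted by window, the shares were 31.0%, 11.7%, 10.4% and 9.88% in the same order, and 7.26% of all 35116 windows. The shares of genes called higher and lower were thus nearly equal. Other motifs of the 9, also on either strand, differed in share as well. Their shares are per gene, apart from those of all windows. The AP-1 letters TGAGTCA were in 10.5% of genes called higher, 4.88% called lower and 4.10% measured (4.95% of all windows), and the TATA box letters TATAAA in 12.5%, 7.75% and 7.54% (11.5% of all windows). The CCAAT box was in 55.5%, 43.1% and 44.5% (34.6% of all windows). The ETS letters CCGGAAGT were in 6.25% called higher, 8.70% called lower, 12.1% measured and 26.7% of ribosome biogenesis genes (4.14% of all windows). The remaining 3, for CREB, E2F and NRF1 (TGACGTCA, TTTGGCGC and GCATGCGC), were in 4.69%, 0.781% and 7.03% of genes called higher, 5.20%, 1.70% and 6.05% called lower and 4.55%, 1.49% and 7.38% measured, and in 1.85%, 0.652% and 3.05% of all windows. The letters began 1 base before the start in PAK1IP1, 25 bases before it in CCDC86 and 199 bases before it in SRM, and are capitals in the promoters of these 3 genes, which were chosen as strongly lower genes of the nucleolus and of polyamine synthesis that hold it.
PAK1IP1 (chr6:10694722-10695021, plus strand): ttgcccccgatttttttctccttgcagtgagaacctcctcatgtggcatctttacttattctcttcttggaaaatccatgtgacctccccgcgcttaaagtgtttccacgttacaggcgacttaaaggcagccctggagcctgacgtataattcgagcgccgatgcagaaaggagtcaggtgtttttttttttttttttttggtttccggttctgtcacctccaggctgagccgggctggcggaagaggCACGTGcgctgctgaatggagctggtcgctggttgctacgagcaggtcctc
CCDC86 (chr11:60841863-60842162, plus strand): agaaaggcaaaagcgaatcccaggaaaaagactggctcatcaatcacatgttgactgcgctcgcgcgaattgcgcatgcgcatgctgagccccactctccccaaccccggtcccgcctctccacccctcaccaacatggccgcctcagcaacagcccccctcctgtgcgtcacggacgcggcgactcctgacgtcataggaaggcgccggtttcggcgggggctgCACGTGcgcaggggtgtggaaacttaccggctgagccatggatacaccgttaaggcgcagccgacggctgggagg
SRM (chr1:11059969-11060268, minus strand): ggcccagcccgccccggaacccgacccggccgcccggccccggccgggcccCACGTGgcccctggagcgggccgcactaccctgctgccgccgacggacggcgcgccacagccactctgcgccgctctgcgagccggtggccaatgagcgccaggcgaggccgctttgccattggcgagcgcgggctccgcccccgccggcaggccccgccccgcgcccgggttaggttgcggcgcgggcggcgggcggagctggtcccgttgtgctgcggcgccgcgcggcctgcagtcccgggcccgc

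Transcripts of the ribosome's own proteins lay near their DMSO level. Of 82 measured cytosolic ribosomal protein genes, 1 was called lower (1.22%) and none higher (median 0.07). The exception was RPS26, with 562 and 346 CPM (-0.70 [-0.72, -0.68]), which has many near-identical copies in the genome, and the sources used here do not say how the counting treated reads shared with them. The proteins of the mitochondrial ribosome, encoded in the nucleus, had 8 of 75 lower (10.7%, beside 13.0% over all measured genes) and none higher (median -0.30), or 1 higher and 5 lower under median-of-ratios scaling. MRPL12 had 171 and 87.6 CPM (-0.96 [-1.0, -0.92]) and MRPL41 464 and 265 CPM (-0.81 [-0.83, -0.79]). Nuclear genes of the respiratory chain sat near the median of all genes, with 1 of 61 lower, namely cytochrome c (CYCS, 387 and 230 CPM, -0.75 [-0.78, -0.73]). Their median was -0.09, which turns positive with median-of-ratios scaling.

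Mitochondrially encoded transcripts took a larger share of the RNA with neratinib. All 13 had positive ratios, between 0.09 and 0.43 with a median of 0.31, and none reached 1.5-fold. MT-CO2, a subunit of cytochrome c oxidase, had 37146 and 49242 CPM (0.41 [0.40, 0.41]), and MT-CYB, of the complex before it, 18279 and 24643 CPM (0.43 [0.43, 0.43]). With median-of-ratios scaling 2 of 13 passed 1.5-fold, and in cells with at most 20% mitochondrial UMIs, a limit that 86.6% of DMSO cells but 38.4% of neratinib cells met, the median was 0.16. A large mitochondrial share is commonly read as a sign of damaged cells, and the part of cell condition in this difference was not tested. In those same cells with at most 20%, 390 genes were called higher and 1037 lower, 310 and 948 of them also in the main counts.

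Helicases of the DEAD and DEAH box families, which unwind RNA, had 10 of 45 lower (22.2%) and none higher (median -0.36). Over all measured genes 3.91% were higher and 13.0% lower. DDX5, a splicing and transcription cofactor, was among the most abundant genes called lower, with 509 and 205 CPM (-1.31 [-1.34, -1.29]). DDX21, which works in ribosomal RNA synthesis, had 115 and 48.5 CPM (-1.24 [-1.30, -1.19]) and was less different on top of fulvestrant, at -0.71. The family had 1 member higher and 4 lower under median-of-ratios scaling. Splicing and mRNA decay genes were mixed, with 5 of 44 higher (11.4%) and 3 lower (6.82%), or 8 and 3 under median-of-ratios scaling. The splicing factors SRSF7 and SRSF3 had 307 and 134 CPM (-1.20 [-1.23, -1.17]) and 511 and 272 CPM (-0.91 [-0.93, -0.89]), while BTG1, an antiproliferative partner of the deadenylase complex, had 91.8 and 223 CPM (1.28) and its relative BTG3 17.5 and 8.75 CPM (-1.0 [-1.13, -0.87]).

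Among transporters and metabolic enzymes, solute carriers were called lower at a larger share than all measured genes (13.0%). Of 135 measured solute carriers 4 were higher (2.96%) and 30 lower (22.2%, median -0.27), or 8 and 18 with median-of-ratios scaling. SLC19A1, the folate carrier, had 9.85 and 4.13 CPM (-1.26 [-1.44, -1.08]), SLC52A2, a riboflavin carrier, 93.2 and 39.9 CPM (-1.22 [-1.28, -1.17]), and SLC29A2, a nucleoside carrier, 20.3 and 8.79 CPM (-1.21 [-1.33, -1.09]). The exception at that size was the mitochondrial carrier SLC25A45, with 11.7 and 29 CPM (1.31 [1.21, 1.41]). Glycolysis and hypoxia genes had 1 of 29 higher and 6 lower (20.7%), or 2 and 3 under median-of-ratios scaling, among them HK2, the hexokinase of fast-growing cells, with 9.99 and 5.62 CPM (-0.83 [-0.99, -0.67]). TIGAR, a phosphatase that lowers glycolytic flux, had the lowest ratio of the p53 target list, with 10.7 and 1.93 CPM (-2.47 [-2.72, -2.23]). None of 23 measured cholesterol genes was called in either direction (median 0.01), or 1 higher under median-of-ratios scaling, and of 24 fatty acid genes LPIN2 (-1.04), FADS1 (-0.94) and PLIN2 (-0.85) were lower (12.5%) and INSIG2 (0.67) higher (4.17%), shares near those of all measured genes.

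Cyclin D1 carried the largest difference of the cell cycle genes. CCND1 had 315 CPM with DMSO and 45.2 with neratinib (-2.80 [-2.85, -2.75]), and 246 CPM with fulvestrant and 30.7 with both drugs (-3.00). Of 23 measured cyclins, CDKs and inhibitors, 2 were higher (8.70%) and 4 lower (17.4%), beside 3.91% and 13.0% over all measured genes. Under median-of-ratios scaling 4 were higher and 3 lower. Replication genes had 5 of 44 lower (11.4%, close to the 13.0% over all measured genes) and none higher (median -0.28), with RRM2, the small subunit of ribonucleotide reductase, at 42.0 and 16.6 CPM (-1.34 [-1.43, -1.25]) and the checkpoint adaptor gene CLSPN at 44.4 and 22.7 CPM (-0.97 [-1.05, -0.89]). Cells scored as S phase made up 18.5% [17.3, 19.7] with DMSO and 13.9% [12.8, 15.1] with neratinib. These exact Clopper-Pearson intervals count the cells of 1 library each and leave out variation between cultures. Within cells scored G1 the replication list had 1 lower member and a median of -0.00. The phase calls come from the same RNA and were not set against a DNA measurement.

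Mitotic genes depended on which cells were kept. Of 48 measured members 3 were higher (6.25%) and 4 lower (8.33%) over all cells (median 0.12), beside 3.91% and 13.0% over all measured genes. In cells with at most 20% mitochondrial UMIs 18 were higher and 1 lower (median 0.51), in cells scored G2M 2 were higher and 3 lower, and under median-of-ratios scaling 6 and 1. ASPM, a spindle pole gene, had 161 and 255 CPM (0.66 [0.63, 0.69]) and HMMR, a spindle adaptor, 71.9 and 113 CPM (0.66 [0.61, 0.70]). The tubulin gene TUBB4B had 478 and 247 CPM (-0.96 [-0.98, -0.93]). Of 21 measured histone genes 4 were higher, namely HIST1H2BD (9.16 and 24.7 CPM, 1.43 [1.32, 1.55]), HIST2H2BE (1.01), HIST1H2AC (0.95) and HIST1H2BN (0.72), and none was lower.

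The most extreme ratios were also read within the phases as scored. All 30 of the highest and lowest genes were at least 1.5-fold different in the same direction in cells scored G1, S and G2M. These genes were picked by their ratios over the same cells, so this outcome was close to fixed beforehand and is no separate check. CALCOCO1 was at 2.35, 2.65 and 2.21 in that order, and PHLDA2 at -2.86, -3.18 and -3.34. YPEL2 ranged more widely, at 0.94, 2.10 and 1.72.

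Targets of other signalling pathways were lower in several cases. For comparison, 3.91% of all measured genes were higher and 13.0% lower. The Notch pathway had 6 of 15 lower and none higher (median -0.22), with its target genes HES4 at 256 and 135 CPM (-0.93 [-0.96, -0.89]) and HES1 at 173 and 106 CPM (-0.71 [-0.74, -0.67]) and the receptor gene NOTCH1 at 6.99 and 4.10 CPM (-0.77 [-0.96, -0.58]). With median-of-ratios scaling it had 1 higher and 3 lower. The TGF-beta and BMP list had 2 of 24 higher and 6 lower, or 5 and 4 with median-of-ratios scaling. Its feedback inhibitors PMEPA1 and SKIL had 352 and 149 CPM (-1.24 [-1.27, -1.21]) and 16.2 and 7.01 CPM (-1.21 [-1.35, -1.07]). WNT7B, a secreted WNT ligand, had 11.1 and 3.32 CPM (-1.73 [-1.93, -1.54]), while DKK1, a secreted WNT inhibitor, had 29.8 and 57.0 CPM (0.94 [0.87, 1.0]) but was at 0.51 on top of fulvestrant. Of 18 measured WNT genes 1 was higher (5.56%) and 5 lower (27.8%). PDGFA, which encodes a platelet-derived growth factor chain, had 18.8 and 8.39 CPM (-1.16 [-1.29, -1.04]).

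Actin and tension-related targets of YAP and SRF had 4 of 14 lower and none higher (median -0.38), or 3 lower and 1 higher with median-of-ratios scaling. TEAD4, the DNA-binding partner of YAP, had 17 and 7.70 CPM (-1.14 [-1.27, -1.01]), and tropomyosin TPM1 352 and 205 CPM (-0.78 [-0.81, -0.76]). The abundant actin genes ACTB and ACTG1 were just under the limit, at -0.57 and -0.50. Circadian clock genes had 2 of 12 higher (16.7%) and 5 lower (41.7%), or 3 each way under median-of-ratios scaling. The period genes PER2 and PER3, repressors of the clock, were lower, at -1.05 [-1.21, -0.89] and -0.88 [-1.03, -0.73]. The MYC antagonists MXI1 (8.69 and 19.9 CPM, 1.19 [1.07, 1.31]), MXD3 (25.3 and 54.6 CPM, 1.11 [1.04, 1.18]) and MNT (7.89 and 12.1 CPM, 0.62 [0.49, 0.76]) were higher. MLX, a gene of the same network, was lower (-0.77), whereas MYC had 75.9 and 60.8 CPM (-0.32 [-0.37, -0.27]).

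Keratins, the intermediate filaments of epithelial cells, were lower in sum, although only KRT19 and KRT18 passed 1.5-fold and only KRT19 did under median-of-ratios scaling. The 7 measured members summed to 7610 CPM with DMSO and 4753 with neratinib, with KRT19 at 2904 and 1543 CPM (-0.91 [-0.92, -0.90]), KRT18 at 1961 and 1262 CPM (-0.64 [-0.65, -0.62]) and KRT8 at 1376 and 959 CPM (-0.52 [-0.53, -0.51]). Luminal factors had 1 of 30 higher and 6 lower, but 5 and 1 with median-of-ratios scaling, so their balance depends on the scale. Among all measured genes 3.91% were higher and 13.0% lower. The factors GATA3, at 221 and 135 CPM (-0.71 [-0.74, -0.67]), and LMX1B, at 32.4 and 15.8 CPM (-1.04 [-1.13, -0.94]), were lower, and CITED2, a coactivator, was higher at 14.9 and 28.8 CPM (0.96 [0.86, 1.05]). Of 31 measured estrogen receptor targets 1 was higher and 9 lower against DMSO, 5 lower under median-of-ratios scaling, and none higher and 13 lower on top of fulvestrant. The list shares genes with results given above, so its counts are not separate from them. CCND1 (-2.80) was among the 9, and MYC (-0.32) was called lower only on top of fulvestrant (-1.40). The growth inhibitor RERG was among the lower targets with 9.45 and 4.25 CPM (-1.15 [-1.33, -0.98]), and the abundant target TFF1 differed little, at 2137 and 1857 CPM (-0.20 [-0.21, -0.19]).

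On the CPM scale the stress lists had more lower than higher calls, while genes of cell death differed in both directions. Over all measured genes 3.91% were higher and 13.0% lower. ATF4 targets had 9 of 23 lower (39.1%) and none higher (median -0.42), or 6 and 2 with median-of-ratios scaling. The factor genes CEBPG and CEBPB had 32.6 and 15.9 CPM (-1.04 [-1.13, -0.95]) and 184 and 93.6 CPM (-0.98 [-1.01, -0.94]). The unfolded protein response had 6 of 26 lower (23.1%), or 1 higher and 2 lower under median-of-ratios scaling. The 6 included SDF2L1, a chaperone cofactor of the endoplasmic reticulum, with 52.0 and 21.3 CPM (-1.29 [-1.37, -1.21]). Heat shock chaperones had 1 of 22 higher (4.55%) and 4 lower (18.2%), but 1 and none with median-of-ratios scaling. BMF, a death-promoting BCL2 family gene, had 2.17 and 8.32 CPM (1.94 [1.72, 2.17]) and BBC3 24.2 and 38.2 CPM (0.66 [0.58, 0.73]), while the survival gene BCL2 had 14.6 and 8.90 CPM (-0.72 [-0.85, -0.59]) and BOK 17 and 8.94 CPM (-0.93 [-1.05, -0.80]). MCL1, another survival gene, was at -0.19. The caspase activator APAF1 was at 0.61 [0.47, 0.75] and the caspase inhibitor XIAP at -0.63 [-0.72, -0.55].

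Chromatin regulators were mostly near the median. Of 50 measured acetyltransferases, deacetylases and bromodomain genes 3 were higher and 3 lower, or 5 and none under median-of-ratios scaling. The higher ones were HDAC5, BRD8, a bromodomain subunit of the TIP60 complex, with 23.3 and 59.0 CPM (1.34 [1.27, 1.41]), and MBTD1, of the same complex, with 14.7 and 32.6 CPM (1.15 [1.06, 1.24]). Among 47 genes of chromatin methylation 5 were lower (10.6%, close to the 13.0% of all measured genes), led by the methyltransferases SUV39H2 (-1.23 [-1.37, -1.09]) and KMT5A (-0.98 [-1.06, -0.90]), and none higher, or 3 lower and 1 higher under median-of-ratios scaling. Zinc finger genes had 5 of 263 higher (1.90%) and 28 lower (10.6%), beside 3.91% and 13.0% of all measured genes, or 16 each way with median-of-ratios scaling.

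The remaining lists had few calls, with shares near those of all measured genes (3.91% higher, 13.0% lower) for repair and junction genes. DNA repair genes had 5 of 38 lower (13.2%) and none higher, or 3 lower and 1 higher under median-of-ratios scaling, with the recombination gene RAD51D at 11.8 and 5.85 CPM (-1.01 [-1.16, -0.85]). Epithelial junction genes had 4 of 27 lower (14.8%), among them the tight junction gene CLDN7 with 252 and 167 CPM (-0.59 [-0.62, -0.56]), but 1 lower and 1 higher under median-of-ratios scaling. Of 12 measured interferon response genes STAT2 was higher (5.45 and 9.36 CPM, 0.78 [0.62, 0.94]) and the deubiquitinase-type gene USP18 (21.0 and 10.5 CPM, -1.0 [-1.12, -0.89]) and ISG20 (-0.90 [-1.02, -0.78]) were lower. None of 12 genes of MHC class I and antigen processing was called in either direction (median -0.08, above 0 under median-of-ratios scaling). KLF and SP factors had 2 of 15 in each direction, with KLF8 at 6.97 and 15.6 CPM (1.16 [1.03, 1.30]) and KLF2 at 78.8 and 41.1 CPM (-0.94 [-1.0, -0.88]).

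Noncoding genes more often differed upward, whereas all measured genes were higher in 3.91% and lower in 13.0%. Of 124 measured clone-named noncoding genes 24 were higher and 10 lower (median 0.19), and of 63 antisense genes 12 were higher and 3 lower (median 0.24), or 20 and 2 under median-of-ratios scaling. DICER1-AS1 had 4.45 and 13.3 CPM (1.58 [1.42, 1.74]), HOTAIR 13.4 and 25.9 CPM (0.95 [0.85, 1.05]) and LINC00672 52.1 and 115 CPM (1.14 [1.09, 1.19]). Whether the counting used strand is not stated in the sources used here, so reads of an antisense gene and its partner may not be told apart. The abundant nuclear transcripts MALAT1 (0.02) and NEAT1 (0.30) were under the limit.

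**Figure D4:**
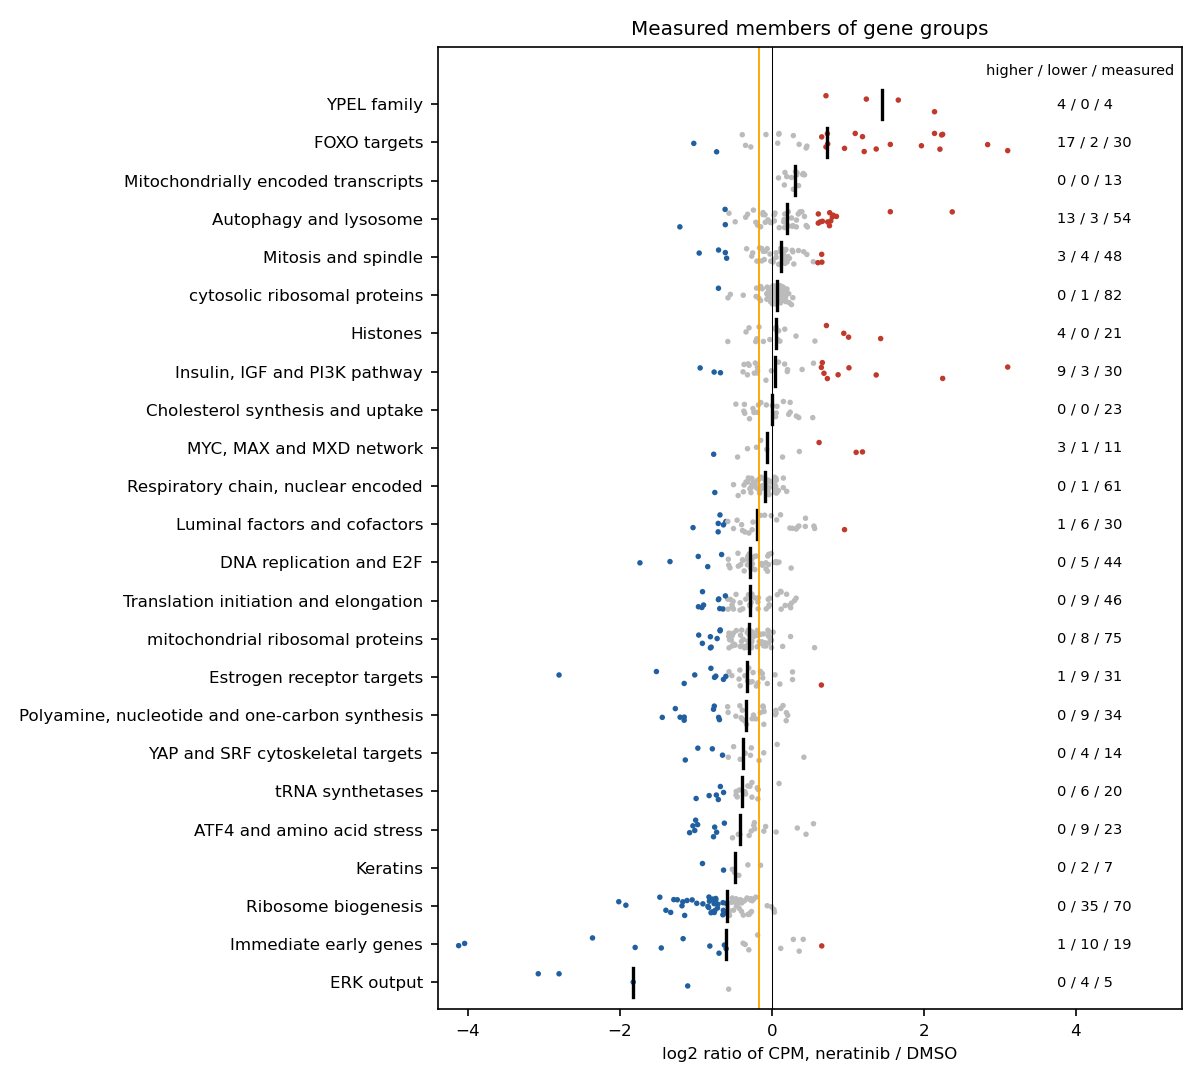
Log2 ratio of CPM (neratinib over DMSO, horizontal axis) of each measured member of 24 gene groups, with red for called higher, blue for called lower, grey for neither, a black bar at the group's median and the counts at the right. The orange line is the median of all measured genes, -0.17. YPEL genes lie at the top with a median of 1.45 and ERK output genes at the bottom with -1.82.

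Most neratinib cells lay on the same side of the DMSO median for each of 4 gene groups, picked from all those read per cell. With every cell thinned to 5000 UMIs, CCND1 was detected in 74.8% [73.5, 76.1] of DMSO cells and 18.7% [17.4, 20] of neratinib cells (97.2% and 54.1% unthinned). YPEL3 was detected in 13.4% and 47.8% of thinned cells (46.5% and 89.4% unthinned), CALCOCO1 in 4.50% and 18.7% (16.2% and 58.4%), and DDX5 in 89.3% and 60.3%. No cell type that lacks these genes was present, and the background from free RNA was not measured here. Summed over the 30 FOXO targets, the median thinned cell held 4 UMIs with DMSO and 8 with neratinib, and 86.5% of neratinib cells were above the DMSO median. For ribosome biogenesis the medians were 23 and 17 UMIs, with 80.4% of neratinib cells below the DMSO median, and for keratins 37 and 23 UMIs, with 91.1% below. The mitochondrial sum was above the DMSO median in 92.6% of neratinib cells. The distributions still overlapped: 28.1% of neratinib cells exceeded the 95th percentile of DMSO for FOXO targets, and 16% were below the 5th percentile for ribosome biogenesis. Shifts of this size were not limited to these 4 groups. Below the DMSO median were 92.7% of neratinib cells for ERK output, 86.4% for mitochondrial ribosomal proteins and 84.3% for YAP and SRF targets. Several other groups were more evenly split. For translation factors 46.0% of neratinib cells were above the DMSO median and 50.8% below, and for insulin, IGF and PI3K genes 38.9% and 44.7%.

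**Figure D5:**
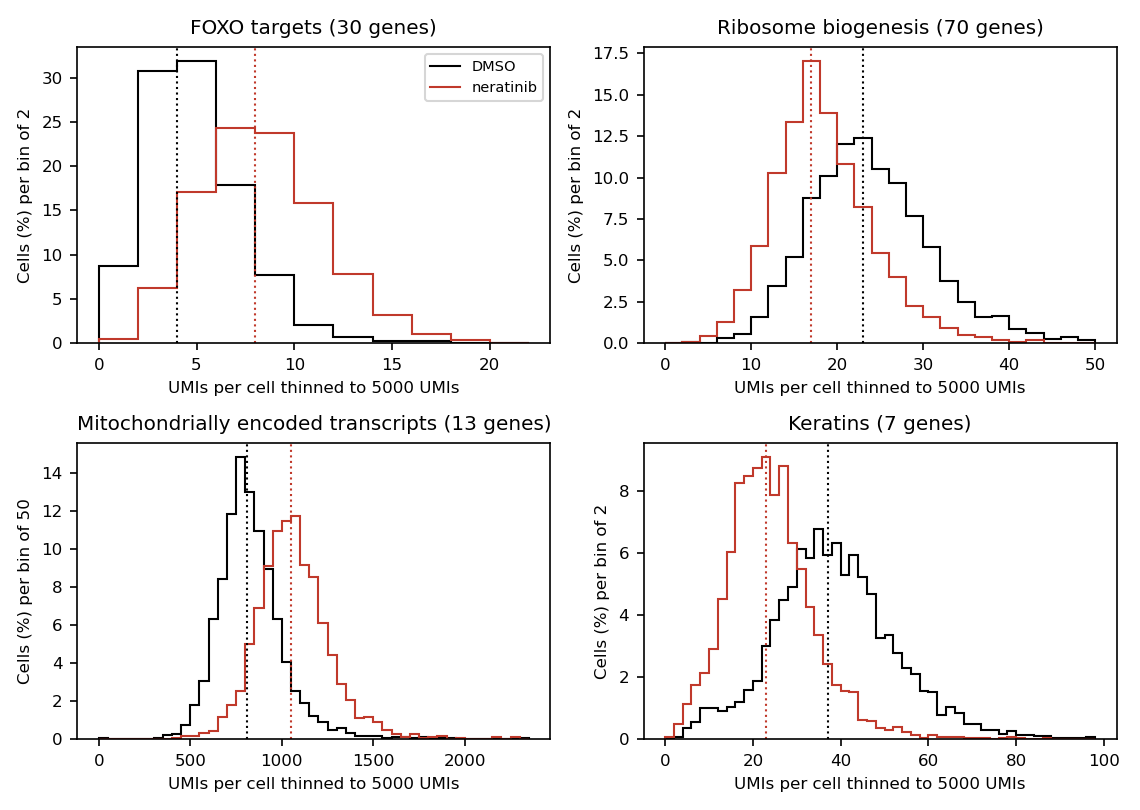
Share of cells (vertical axis, %) by the summed UMIs of 4 gene groups per cell after thinning to 5000 UMIs (horizontal axis), for DMSO (black) and neratinib (red), with dotted lines at the medians. The neratinib curve is shifted as a whole to the right for FOXO targets (median 4 to 8) and mitochondrial transcripts (808 to 1049) and to the left for ribosome biogenesis (23 to 17) and keratins (37 to 23).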

How the data were processed

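UMI counts of 4 single-cell libraries were deposited by the authors as 1 unfiltered matrix of 33538 genes. The tool, per the submitters' processing notes, was Cell Ranger 3.1.0. Libraries were told apart by the number at the end of each barcode, matched to the number that opens each sample title, a mapping no other label states. The sources used here do not say whether depth was evened on merging. The processing notes name hg19, while 33456 identifiers were in GENCODE 29 (GRCh38), 33071 with the same symbol, so coordinates are printed only for RefSeq promoter windows. Gene spans and neighbours of ERBB2 come from GENCODE 29.

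Cells and calls followed the limits given above. Doublets were kept and no caller was run. UMIs were summed per library in python 3.11.15 (numpy 2.4.6, scipy 1.17.1, pandas 2.3.3, plots with matplotlib 3.10.9). Cells of the 2 libraries held 92.2% and 91.8% of their UMIs, of 110511222 and 89559704. With 1 library a side nothing was tested, and the interval code was tested on simulated counts. The members, 57 gene lists and 19 families were chosen with earlier results of these data known. Named genes were a fixed few (ERBB2, EGFR, ERBB3, ESR1, CCND1, MYC, BRD8), the 15 highest and 15 lowest ratios at a mean of at least 10 CPM outside the ERK, immediate early, FOXO, mitochondrial and ribosomal protein genes, and per list up to 5 called and the 3 most abundant members. Alternatives varied scaling, cell limits, phase, thinning, minimum CPM and fold.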

Additional observations from a re-analysis of the deposited data

How the results depend on the processing

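Counts of called genes changed most with the fold, the minimum CPM and the scaling. Against DMSO the genes called higher numbered 639 with median-of-ratios scaling, 852 with a minimum mean of 1 CPM, 127 with a minimum of 20 CPM, 879 at the lower fold limit tried and 123 at 2-fold. The genes called lower numbered 667, 1816, 501, 3002 and 281 in the same order. The genes higher with neratinib on top of fulvestrant numbered 644, 877, 118, 895 and 114, and the genes lower with neratinib on top of fulvestrant 653, 1781, 498, 2949 and 297. Scaling to non-mitochondrial UMIs, a ceiling of 20% mitochondrial UMIs, no ceiling, a minimum of 10000 UMIs per cell and thinning left all 4 counts within 1.5 times their main values. So did cells of a single phase, run for the pair with DMSO. None of the 284 named genes that were called changed sign under the settings that alter the set of cells or their depth. These settings reuse the cells that gave the calls, so they are no separate check. The scalings, fold and CPM limits could not turn a called ratio. The share of higher genes among those called was 23.1%, 48.9% with median-of-ratios scaling and 35.5% over non-mitochondrial UMIs. No replicate could be left out and no paired analysis was possible because each group has 1 library. Depth limits genes under 5 CPM, and intervals leave out variation between cultures.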

Other observations

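The neighbourhood of ERBB2, which is amplified in BT474, was read after the values of its genes were seen. Within 1 Mb of ERBB2 on each side (GENCODE 29 gene positions), 38 of 72 genes were measured, with a median of -0.12. Of these 5 were called higher (13.2%) and 4 lower (10.5%), beside 3.91% and 13.0% over all measured genes. Called higher were GRB7, FBXL20, LINC00672, TCAP, a sarcomere gene (9.83 and 16.4 CPM, 0.74), and GSDMB, a gasdermin gene (14.0 and 22.3 CPM, 0.67). Called lower were CISD3 (750 and 367 CPM, -1.03), PCGF2 (342 and 184 CPM, -0.90), CDC6 (-0.66) and AC006449.5 (-1.45). ERBB2, STARD3, PGAP3 and MIEN1, from the same stretch as GRB7, were at -0.03, -0.01, 0.06 and -0.58.

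Gene class and gene span moved with the calls. Coding genes were higher in 3.50% and lower in 13.2% of 8896, antisense genes in 18.2% and 6.06% of 132, and long intergenic noncoding genes in 19.8% and 7.76% of 116. Among coding genes 19.8% of those spanning up to 5 kb were called lower, against 10.0% of those over 100 kb, and the median span was 24.8 kb for lower, 34.0 kb for uncalled and 41.8 kb for higher genes.

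A few genes differed in ratio between the pairs without and with fulvestrant. MYC had 75.9 CPM with DMSO, 60.8 with neratinib, 15.7 with fulvestrant and 5.93 with both drugs, which gives ratios of -0.32 and -1.40. TSKU, a secreted proteoglycan gene, had 56.8, 46.1, 17.4 and 7.53 CPM in the same order (-0.30 and -1.20). NPY1R, a neuropeptide Y receptor gene and known estrogen receptor target, had 13.1, 19.3, 9.51 and 8.06 CPM, with ratios of opposite sign (0.56 and -0.24). SLC6A14, an amino acid transporter gene, had 12.8, 11.2, 3.49 and 5.67 CPM (-0.18 and 0.70). With 1 library per group the difference between the pairs was not tested.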
